A study of Homo sapiens with 12 samples.

Results

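The comparison sets MCF10A-HER2-FKBP-HA cells given TGF-alpha against the same cells given AP1510, and covers 6 of the 12 arrays of the series, 3 per treatment, chosen by their treatment label. MCF10A is a human breast epithelial line that does not form tumours. All cells, in both groups, carry a stably transfected chimera of full-length human HER2 fused to FKBP, a drug-binding domain, and to an HA tag. TGF-alpha is a natural ligand of EGFR. AP1510 is a man-made compound with a pair of FKBP-binding ends, which joins the chimeric receptors into HER2 homodimers. In both groups, serum and EGF were withdrawn 24 hours before the ligand, while cholera toxin, hydrocortisone and insulin stayed in the medium, and RNA was taken 48 hours after the ligand. Doses are missing from the sources used here, the line is the only one studied, and the 3 arrays of a treatment come from dishes seeded alongside each other, so p-values measure the spread between dishes. Untreated cells were not used as a baseline here: the contrast shows how far the treatments lie apart, and which of them moved a gene cannot be told from it.

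EGFR, HER2 (ERBB2), HER3 (ERBB3) and HER4 (ERBB4) are receptor tyrosine kinases that signal as pairs. TGF-alpha makes EGFR pair with itself or with HER2, whereas HER2 has no known ligand of its own and signals when it is forced together or held by a partner. The receptors switch on the RAS-ERK cascade, which drives growth genes together with its own inhibitors, and the PI3K-AKT branch, which keeps FOXO transcription factors out of the nucleus. MCF10A cells depend on EGFR ligands to proliferate in ordinary culture.

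Levels are log2 intensities made with RMA, a method that corrects background, equalises the arrays and summarises the probes of a transcript, so a difference of 1 is a change of 2-fold. RMA compresses changes near background, and the small number of arrays limits the precision. Of 18417 genes tested with limma, 3981 passed at a Benjamini-Hochberg adjusted p of 0.05, which is 21.6% of them. Of these, 2061 were higher in TGF-alpha cells (11.2%) and 1920 were lower (10.4%), and the median change over all genes was 0.01. A change of at least 2-fold was met by 464 genes (2.52%), 235 of them higher (1.28%) and 229 lower (1.24%). The smallest change that passed was 0.22 on the log2 scale, and the share passing was 40% among genes with a mean level above 6.97, against 3.83% among those up to 4.98.

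Correlations between arrays ran from 0.9955 to 0.9961 within TGF-alpha, from 0.9939 to 0.9953 within AP1510, and from 0.9765 to 0.9851 between the treatments. AP1510 replicate 1 stood nearer to the TGF-alpha arrays than its fellows did. Along the first principal component of the 6 arrays, which held 72.4% of the variance, the TGF-alpha arrays lay at 21.8, 24.1 and 25.9 and the AP1510 arrays at -17.0, -26.7 and -28.2. In 2396 of the 3981 genes that passed (60.2%), replicate 1 was the AP1510 array closest to the TGF-alpha mean. Without it, 3885 genes passed, 3563 of them shared with the full comparison, and 585 changed at least 2-fold. The part of this array in each result was measured by leaving it out. Given beside the result are changed calls of genes named here, and values moved by over 1.5 times. Smaller shifts are mostly left out, such as VTCN1 from -3 to -3.34 and HSD11B2 from -1.71 to -1.43 in log2 change.

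**Figure D1:**
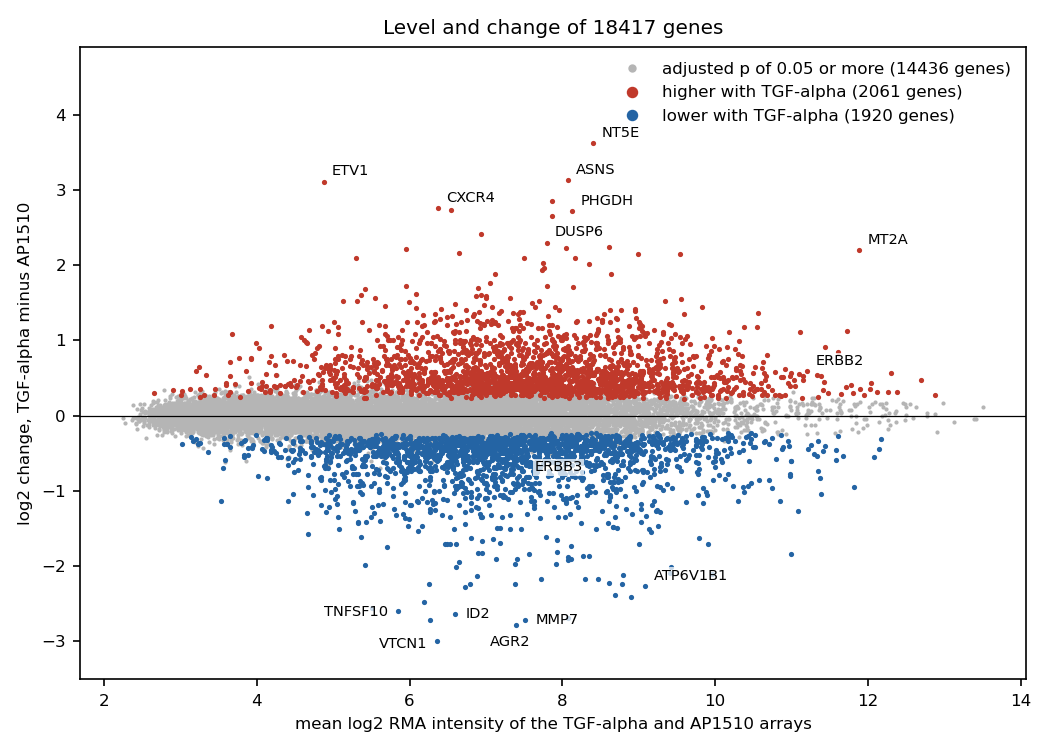
Change against level for the 18417 genes tested. The x axis is the mean log2 RMA intensity over the 6 arrays, the y axis is the log2 change of TGF-alpha minus AP1510, and each point is a gene, coloured by whether it passed at an adjusted p of 0.05. Changes reach 3.62 upwards at NT5E and 3 downwards at VTCN1, and few of the dimmest genes passed.

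The gene furthest above its AP1510 level was NT5E (probe set 8120967, chromosome 6), the cell-surface enzyme CD73 that turns AMP into adenosine. NT5E read 10.17, 10.27 and 10.21 in TGF-alpha cells, against 6.59, 6.57 and 6.62 in AP1510 cells. The groups lay far apart and each was tight, giving a 12.3-fold rise (log2 change 3.62 ± 0.13 SE, limma adjusted p = 9.7e-11). In bulk RNA, more cells expressing a gene and more RNA per cell cannot be told apart. ASNS (probe set 8141150, chromosome 7), the enzyme that makes asparagine, read 9.65, 9.69 and 9.59 in TGF-alpha cells, against 6.52, 6.48 and 6.53 in AP1510 cells. This is an 8.78-fold rise with no overlap (log2 change 3.13 ± 0.10 SE, limma adjusted p = 2.7e-11). DUSP6 (probe set 7965335, chromosome 12), the phosphatase that switches ERK off in the cytoplasm, read 8.86, 8.86 and 9.10 in TGF-alpha cells, against 6.58, 6.58 and 6.77 in AP1510 cells. It rose 4.91-fold (log2 change 2.30 ± 0.11 SE, limma adjusted p = 1e-09), and again all TGF-alpha arrays lay above all AP1510 arrays.

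Genes at the other end were led by VTCN1 (probe set 7918936, chromosome 1), which encodes B7-H4, a surface protein that dampens T cells. VTCN1 read 4.65, 5.18 and 4.77 in TGF-alpha cells, against 7.17, 8.13 and 8.29 in AP1510 cells. It was 8-fold lower in TGF-alpha cells (log2 change -3 ± 0.22 SE, limma adjusted p = 1e-07), with AP1510 replicate 1 the lowest of its group. AGR2 (probe set 8138381, chromosome 7), a disulfide isomerase of secretory cells needed to make mucins, read 5.95, 5.93 and 6.15 in TGF-alpha cells, against 8.23, 8.99 and 9.14 in AP1510 cells. The fall was 6.88-fold (log2 change -2.78 ± 0.18 SE, limma adjusted p = 3.7e-08). MMP7 (probe set 7951217, chromosome 11), the protease matrilysin made by glandular epithelium, read 6.21, 6.10 and 6.16 in TGF-alpha cells, against 8.85, 8.87 and 8.89 in AP1510 cells. MMP7 fell 6.56-fold (log2 change -2.71 ± 0.13 SE, limma adjusted p = 1.1e-09) and, unlike VTCN1 and AGR2, had AP1510 arrays close to one another.

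Among the other 12 of the 15 largest rises, ETV1, ETV5, PSAT1, PHGDH and SLC7A11 belong to groups described further on. CXCR4, the receptor of the chemokine CXCL12, read 7.56, 7.95 and 7.76 in TGF-alpha cells, against 5.40, 4.82 and 4.74 in AP1510 cells, a rise of 6.79-fold. IL1R2, a decoy receptor that soaks up interleukin-1, rose 6.26-fold, and its AP1510 arrays were spread from 6.14 to 7.12 with replicate 1 the highest. CCNA1, a cyclin A best known from the testis, rose 5.30-fold. EMP3, a small membrane protein, rose 4.69-fold, and SERPINE2, an inhibitor of thrombin and urokinase, rose 4.48-fold. SCNN1G and MT2A are taken up with the glucocorticoid-response genes. The 15 rises spanned 4.48-fold to 12.3-fold and kept their call in every alternative that tested them. ETV1 was not tested where the dimmest genes were left out.

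The largest falls, after VTCN1, AGR2 and MMP7, were mixed in function. STEAP4, a metalloreductase induced by inflammation, fell 6.57-fold, and SLC4A11, a membrane transporter, fell 6.44-fold. SELENOP, a secreted selenium carrier, read 4.11, 4.31 and 4.29 in TGF-alpha cells, against 7.07, 6.80 and 6.49 in AP1510 cells, a fall of 5.86-fold. RARRES1 and RDH10 both belong to retinoid biology, RARRES1 as a retinoic acid-induced gene and RDH10 as the enzyme that turns retinol into retinal. RARRES1 fell 5.31-fold and RDH10 fell 5.22-fold. ATP6V1B1, a subunit of the proton pump of specialised acid-secreting cells, read 7.96, 7.92 and 7.99 in TGF-alpha cells, against 10.08, 10.23 and 10.32 in AP1510 cells, a fall of 4.78-fold. LXN, a carboxypeptidase inhibitor, and IGFBP3, a carrier of insulin-like growth factors, each fell 4.73-fold, and GRAMD1B, a sterol transporter, fell 4.84-fold. In VTCN1, AGR2, STEAP4, SLC4A11, TNFSF10, GBP2, RARRES1, RDH10, GRAMD1B, LXN and IGFBP3 alike, AP1510 replicate 1 was the AP1510 array nearest to TGF-alpha. Each of the 15 falls passed without it.

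**Figure D2:**
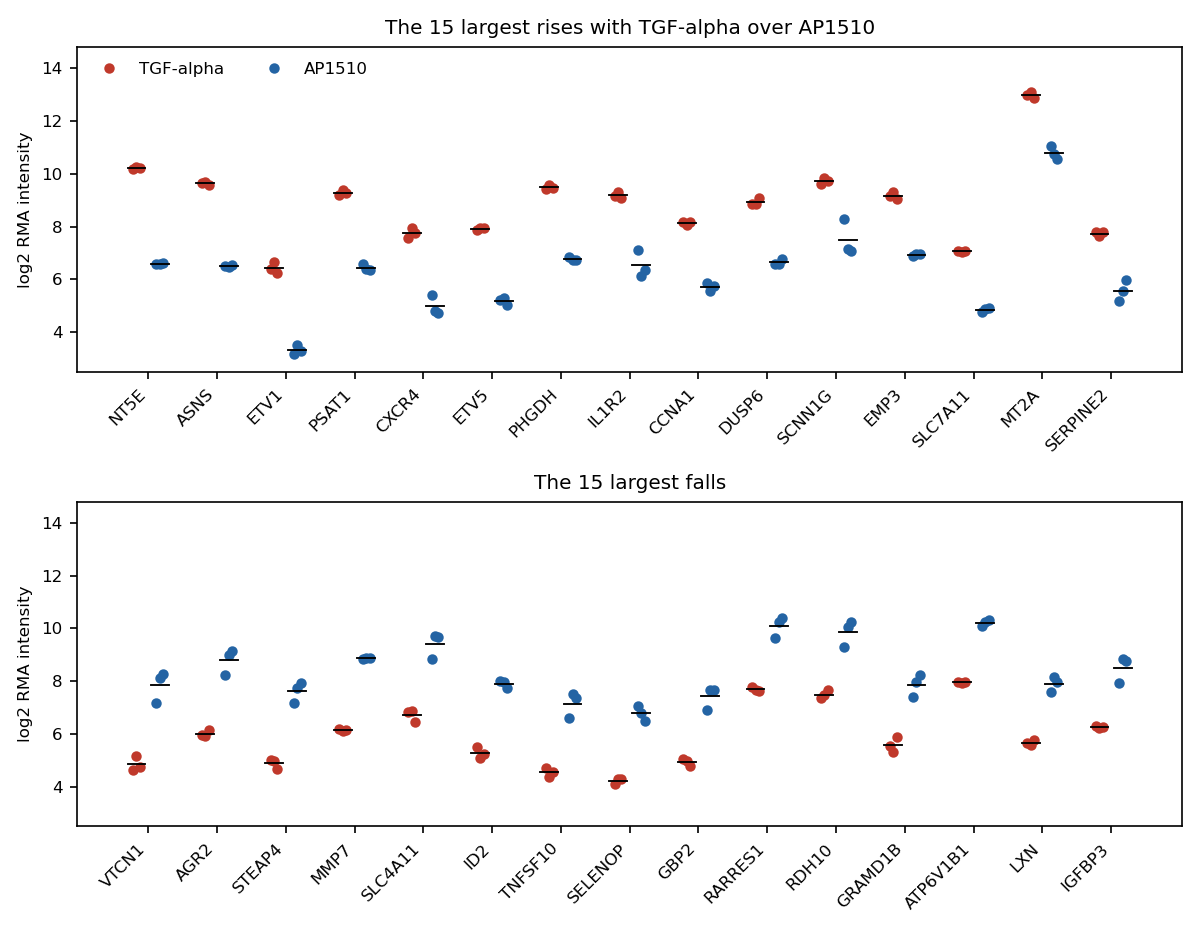
Levels of the 15 largest rises (upper panel) and 15 largest falls (lower panel) on each array. Points are arrays, red for TGF-alpha and blue for AP1510 with replicates 1 to 3 from left to right, the y axis is log2 RMA intensity and black lines are group means. The genes were picked among those whose groups do not overlap, which held with TGF-alpha above in 18.8% and below in 17.7% of all genes. In SCNN1G, IL1R2, VTCN1 and AGR2 the AP1510 replicate 1 point lies towards the TGF-alpha points.

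Of the 4 receptor genes, 1 rose and 1 fell (25% each, against 11.2% and 10.4% over all genes), each by less than 2-fold. ERBB2 (probe set 8006906, chromosome 17) read 11.46, 11.54 and 11.49 in TGF-alpha cells, against 10.93, 10.79 and 11.01 in AP1510 cells. It was 1.5-fold higher in TGF-alpha cells (log2 change 0.59 ± 0.08 SE, limma adjusted p = 6e-05), and RNA of the chimera and of the cell's own gene may both be read by this probe set and cannot be told apart. ERBB3 (probe set 7956120, chromosome 12), the kinase-poor receptor that feeds PI3K, read 7.17, 7.18 and 6.98 in TGF-alpha cells, against 7.75, 7.88 and 8.18 in AP1510 cells. It fell 1.77-fold (log2 change -0.82 ± 0.10 SE, limma adjusted p = 2.1e-05), with no overlap. EGFR, the receptor of TGF-alpha, read 9.09, 8.98 and 8.98 in TGF-alpha cells, against 8.93, 8.69 and 8.92 in AP1510 cells. EGFR did not pass (log2 change 0.17, 95% interval -0.02 to 0.37, limma adjusted p = 0.24), which leaves changes within that interval undetected. ERBB4, read at 3.96 to 4.13 in TGF-alpha cells and 3.98 to 4.21 in AP1510 cells, overlapped between the groups.

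Of 14 measured ErbB ligands and regulators, 2 rose and 4 fell, 14.3% and 28.6% against 11.2% and 10.4% over all genes. HBEGF, a membrane-shed ligand of EGFR and HER4, read 6.27, 5.83 and 6.10 in TGF-alpha cells, against 6.49, 7.19 and 7.60 in AP1510 cells, and fell 2.04-fold (limma adjusted p = 0.0013). EPGN, the EGFR ligand epigen, read 8.57, 8.82 and 8.67 in TGF-alpha cells, against 8.02, 7.85 and 7.61 in AP1510 cells, and rose 1.82-fold (limma adjusted p = 0.00069). So these ligands of the same receptor moved in opposite directions. ERRFI1, the protein MIG6 that binds and blocks the EGFR kinase, rose 1.59-fold, while LRIG1 and LRIG3, membrane proteins of a family whose member LRIG1 lowers ErbB receptor levels, fell 1.60-fold and 1.76-fold. NRG4, a HER4 ligand read close to background at 3.40 to 4.35 over the 6 arrays, fell 1.47-fold. The TGFA transcript did not pass (log2 change 0.28, limma adjusted p = 0.15), nor did EGF, EREG, NRG1, NRG2, NRG3 or the sheddase ADAM17. BTC had a log2 change of -0.26 (limma adjusted p = 0.095), and passed at -0.34 without AP1510 replicate 1 (limma adjusted p = 0.045). AREG is not analysed here.

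Genes that report ERK output were split. Of 22 measured members of this list, 11 rose and 4 fell, 50% and 18.2% against 11.2% and 10.4% over all genes. The median change was 0.31, and without AP1510 replicate 1 the falls were 6. The PEA3 factors, a trio of ETS transcription factors made when ERK is active, led the rises. ETV1 read 6.39, 6.64 and 6.25 in TGF-alpha cells, against 3.17, 3.50 and 3.29 in AP1510 cells, where it lay near background. ETV5 read 7.87, 7.94 and 7.93 in TGF-alpha cells, against 5.21, 5.29 and 5.02 in AP1510 cells. ETV4 read 6.21, 6.19 and 6.64 in TGF-alpha cells, against 4.43, 4.15 and 4.17 in AP1510 cells. These are rises of 8.63-fold, 6.69-fold and 4.28-fold, each with separate groups (limma adjusted p from 1e-10 to 1e-08).

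The inhibitors that ERK switches on against itself did not move as a block. DUSP6 rose, as did DUSP7, its close relative, by 1.21 on the log2 scale. SPRED1, SPRED2 and SPRY4, which hold back RAS and RAF, rose by 1.05, 0.86 and 0.90. SPRY2, another Sprouty protein, read 7.24, 7.18 and 7.32 in TGF-alpha cells, against 7.85, 8.07 and 8.29 in AP1510 cells, and fell 1.77-fold (limma adjusted p = 2.6e-05). DUSP5, the phosphatase that acts on ERK in the nucleus, read 7.42, 7.31 and 7.35 in TGF-alpha cells, against 7.82, 8.58 and 8.76 in AP1510 cells, and fell 2.04-fold (limma adjusted p = 4e-04). EPHA2, an ephrin receptor induced by ERK, fell 1.76-fold, and IER3, an early response gene, fell 1.85-fold. CCND1, cyclin D1, rose by 0.75 and MYC by 0.35 on the log2 scale, both named after their values were seen.

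Immediate early genes, the transcription factors made within minutes of a growth signal, were mostly lower in TGF-alpha cells at 48 hours. Of 19 measured, 11 fell and 2 rose (57.9% and 10.5%, against 10.4% and 11.2% of all genes), with a median change of -0.45. FOSB, a partner in the AP-1 factor, read 7.54, 7.37 and 7.59 in TGF-alpha cells, against 9.55, 9.67 and 9.94 in AP1510 cells, a fall of 4.67-fold (limma adjusted p = 2.2e-09). NR4A2 and NR4A1, orphan nuclear receptors, fell 3.72-fold and 3.05-fold, and EGR3, a zinc finger factor, fell 2.55-fold. EGR1 read 10.75, 10.86 and 10.99 in TGF-alpha cells, against 11.64, 11.98 and 12.12 in AP1510 cells, and JUN, JUNB, IER2 and ATF3 fell by 0.91 to 0.95 on the log2 scale. FOS itself had a log2 change of -0.21 and did not pass (limma adjusted p = 0.18). KLF4, a factor of epithelial differentiation, was the clear exception, with 6.56, 6.75 and 6.58 in TGF-alpha cells, against 5.85, 5.93 and 5.87 in AP1510 cells. The other rise, KLF10, was small (0.25), and the count that rose was 1 without TGF-alpha replicate 2 or 3 or AP1510 replicate 2 or 3, in a fit of the 6 arrays alone and after a further quantile normalization.

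**Figure D3:**
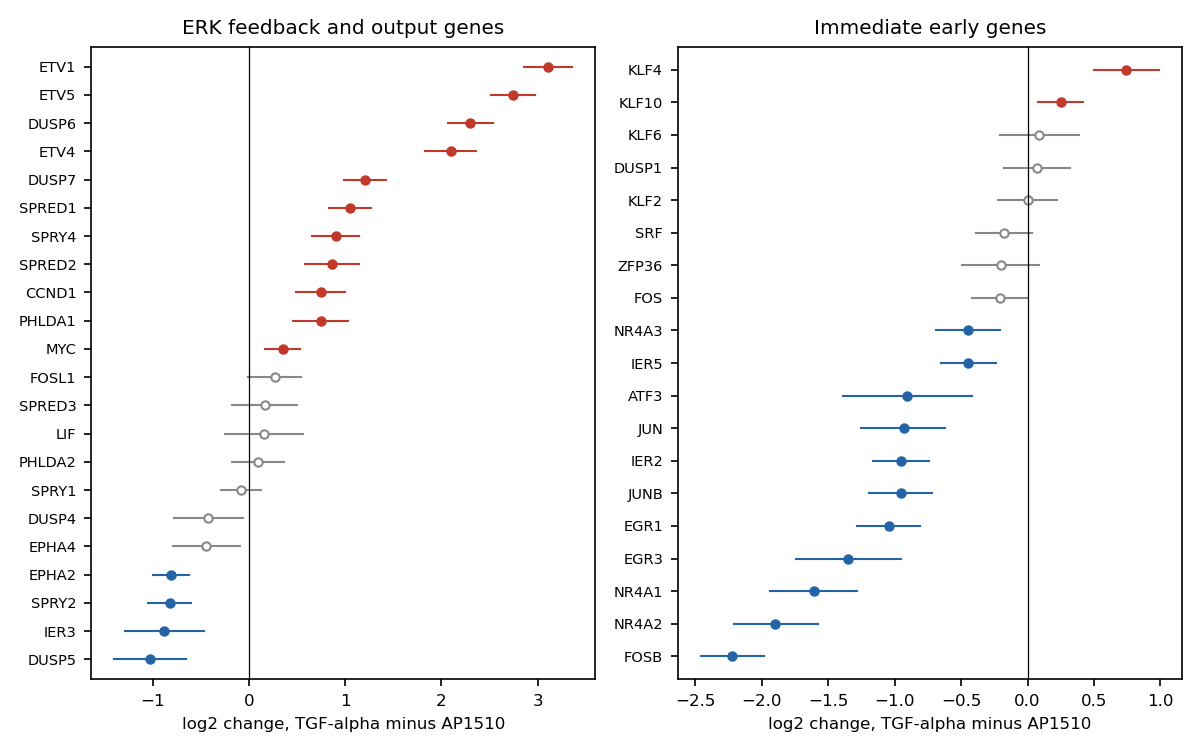
Log2 change of TGF-alpha minus AP1510 for each measured ERK feedback and output gene (left) and immediate early gene (right). Points are estimates and bars are 95% intervals from limma. Filled red points rose, filled blue points fell and open grey points did not pass at an adjusted p of 0.05. The left panel runs from 3.11 at ETV1 to -1.03 at DUSP5, and the right panel lies mostly below 0.

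Targets of YAP and SRF, the factors that answer to cell tension and actin, gave 5 falls and 2 rises among 15 measured. These are 33.3% and 13.3%, against 10.4% and 11.2% over all genes, and the median was -0.26. The falls were 7 in a fit of the 6 arrays alone and 4 under median centring. The secreted matricellular proteins CCN2 and CCN1 had the largest falls. CCN2 read 7.49, 7.44 and 7.22 in TGF-alpha cells, against 8.82, 9.74 and 10.10 in AP1510 cells, a fall of 4.49-fold (limma adjusted p = 5e-06). CCN1 fell 2.80-fold, and AMOTL2 and LATS2, which restrain YAP, fell 1.75-fold and 1.58-fold. AXL, a receptor tyrosine kinase, rose 2.60-fold, and ACTA2, smooth muscle actin, rose 1.54-fold. The members of this list therefore did not share a direction, though the share that rose was close to that over all genes.

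Proliferation genes rose almost without exception. Of 34 measured DNA replication genes, 33 rose and 0 fell (97.1%, against 11.2% of all genes), with a median log2 change of 1, and 17 rose at least 2-fold. TYMS (probe set 8019842, chromosome 18), thymidylate synthase, read 9.27, 9.47 and 9.35 in TGF-alpha cells, against 7.77, 7.07 and 7.22 in AP1510 cells, a rise of 4.03-fold (limma adjusted p = 3.2e-07). RFC4, part of the clamp loader, rose 3.26-fold, CDC45, part of the replicative helicase, rose 3.01-fold, and the primase subunit PRIM1 rose 2.73-fold. GINS3, another part of that helicase, was the only measured member that did not pass (log2 change 0.39, limma adjusted p = 0.054), although its arrays did not overlap between the groups, and it passed without AP1510 replicate 1 (log2 change 0.46, limma adjusted p = 0.046).

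All 34 measured mitosis genes rose (against 11.2% of all genes), by 0.48 to 1.23 on the log2 scale with a median of 0.94. PLK1, a kinase that drives entry into mitosis, read 9.93, 10.05 and 10.04 in TGF-alpha cells, against 8.96, 8.76 and 8.64 in AP1510 cells, a rise of 2.33-fold (limma adjusted p = 2.7e-07). TTK and MAD2L1, of the spindle checkpoint, rose 2.35-fold and 2.32-fold, and the condensin subunit NCAPG rose 2.28-fold. MKI67, the proliferation marker Ki-67, named after its values were seen, read 9.95, 10.06 and 10.18 in TGF-alpha cells, against 9.07, 8.86 and 9.11 in AP1510 cells. In every one of the 34 genes the 3 TGF-alpha arrays lay above the 3 AP1510 arrays, which was so in 18.8% of all genes. These counts of replication and mitosis genes that rose were 33, with GINS3 among them, and 34 without AP1510 replicate 1.

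Of 15 measured genes of cell cycle arrest, 3 fell and 0 rose, a share of 20% against 10.4% of all genes, and 12 did not pass. BTG1, which slows proliferation, read 9.79, 9.79 and 9.71 in TGF-alpha cells, against 10.70, 10.69 and 10.70 in AP1510 cells, a fall of 1.91-fold. CDKN1B, the inhibitor p27 of cyclin-dependent kinases, fell 1.57-fold, and CCNG2, a cyclin of resting cells, fell 1.59-fold. CDKN1A, the inhibitor p21, read 7.75, 7.98 and 7.71 in TGF-alpha cells, against 7.79, 8.07 and 7.93 in AP1510 cells, and did not pass (log2 change -0.12, limma adjusted p = 0.55). Without AP1510 replicate 1, 3 genes of this list rose.

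E2F factors switch on replication genes at the entry to S phase, so the 250 bases before the start of transcription were searched for an E2F site, spelled TTTCCCGC or TTTGGCGC on either strand, in the RefSeq windows of GRCh38.p14. A gene counted once, whichever of its windows and spellings matched. The site was found in 11 of the 31 replication genes that have a window (35.5%), against 3.24% of the genes tested and 2.36% of all 27305 genes in the table. It was found in 0 of 29 mitosis genes and 0 of 24 amino acid response genes. Of the aminoacyl-tRNA synthetase genes, 1 of 16 had it (6.25%), and of the ribosome biogenesis genes, 1 of 18 (5.56%). A match describes the letters and is no evidence of binding. The windows of MCM6, a subunit of the helicase that rose by 1.04 on the log2 scale, and of TYMS are shown because they carry the site before genes that rose, with the site in capitals. MCM6 lies at chr2:135876444-135876693 on the minus strand and holds the site at -152 to -145 and at -90 to -83 from the start, and TYMS lies at chr18:657403-657652 on the plus strand and holds it reversed at -39 to -32.
MCM6: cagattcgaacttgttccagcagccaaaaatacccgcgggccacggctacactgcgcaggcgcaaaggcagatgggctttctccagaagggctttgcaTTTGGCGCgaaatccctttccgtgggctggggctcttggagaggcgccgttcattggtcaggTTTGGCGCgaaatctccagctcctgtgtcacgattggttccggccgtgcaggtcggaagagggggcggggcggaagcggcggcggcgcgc
TYMS: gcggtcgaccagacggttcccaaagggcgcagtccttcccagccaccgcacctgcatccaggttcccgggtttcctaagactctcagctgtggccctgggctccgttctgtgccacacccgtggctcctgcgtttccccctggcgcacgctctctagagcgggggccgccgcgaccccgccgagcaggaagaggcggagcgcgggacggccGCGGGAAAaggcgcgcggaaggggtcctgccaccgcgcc

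Genes of cell growth also rose. All 23 measured ribosome biogenesis genes rose (against 11.2% of all genes), by 0.31 to 0.95 with a median of 0.63, none by 2-fold. DDX21, a nucleolar helicase, read 10.11, 10.16 and 10.18 in TGF-alpha cells, against 9.45, 8.95 and 9.17 in AP1510 cells, a rise of 1.94-fold (limma adjusted p = 7.7e-06). NOLC1, a nucleolar assembly protein, rose 1.87-fold, DKC1, the pseudouridine synthase dyskerin, rose 1.80-fold, and WDR12, needed for the large subunit, rose 1.77-fold. Of 16 measured genes of nucleotide and polyamine synthesis, 15 rose (93.8%, against 11.2% of all genes) and 0 fell, with a median of 0.68. CTPS1, which makes CTP, rose 2.07-fold, CAD, which starts pyrimidine synthesis, rose 2.05-fold, and GART, of purine synthesis, rose 1.97-fold. ODC1, the rate-limiting enzyme of polyamine synthesis, rose 2.02-fold. DHODH had a log2 change of 0.31 and did not pass.

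The amino acid response list holds genes that the factor ATF4 raises when amino acids run short or when growth signals demand them. Of 30 measured, 19 rose and 1 fell (63.3% and 3.33%, against 11.2% and 10.4% of all genes). Rises of at least 2-fold numbered 11, and the median was 0.56. All 3 enzymes that make serine rose: PHGDH 6.60-fold, PSAT1 7.19-fold, and PSPH by 1.40 on the log2 scale. PHGDH read 9.44, 9.59 and 9.45 in TGF-alpha cells, against 6.84, 6.74 and 6.74 in AP1510 cells. PSAT1 read 9.20, 9.40 and 9.27 in TGF-alpha cells, against 6.58, 6.41 and 6.34 in AP1510 cells. Neither gene had an AP1510 array within 2 log2 units of a TGF-alpha array.

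SLC7A11, the cystine importer, read 7.08, 7.04 and 7.08 in TGF-alpha cells, against 4.76, 4.88 and 4.93 in AP1510 cells, a rise of 4.61-fold (limma adjusted p = 6.6e-09). The transporters SLC1A4 and SLC1A5 of small neutral amino acids and glutamine rose by 1.52 and 0.84 on the log2 scale. The mitochondrial folate enzymes SHMT2 and MTHFD2 rose by 1.10 and 1.09. TRIB3, a pseudokinase induced by ATF4, rose by 1.23, and ATF4 itself read 10.62, 10.61 and 10.63 in TGF-alpha cells, against 10.05, 9.97 and 10.06 in AP1510 cells. The list was not uniform: DDIT3, the stress factor CHOP, had a log2 change of -0.33 and did not pass (limma adjusted p = 0.11), and CHAC1, SESN2, ATF5 and FGF21 had changes of 0.03 to 0.19 and did not pass. SLC7A5, the large neutral amino acid transporter, fell slightly (log2 change -0.27, limma adjusted p = 0.032), and its call was lost under median centring and without TGF-alpha replicate 1, 2 or 3 or AP1510 replicate 1 or 3.

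The enzymes that load amino acids onto tRNA followed. Of 19 measured cytosolic aminoacyl-tRNA synthetases, 17 rose and 0 fell (89.5%, against 11.2% of all genes), with a median of 0.88. MARS1, for methionine, read 9.32, 9.32 and 9.34 in TGF-alpha cells, against 7.86, 7.89 and 8.04 in AP1510 cells, a rise of 2.64-fold (limma adjusted p = 2.5e-08). GARS1, for glycine, rose 2.58-fold, IARS1, for isoleucine, rose 2.26-fold, and WARS1, for tryptophan, rose 2.13-fold. QARS1, for glutamine, at -0.18, and RARS1, for arginine, at 0.20 did not pass.

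**Figure D4:**
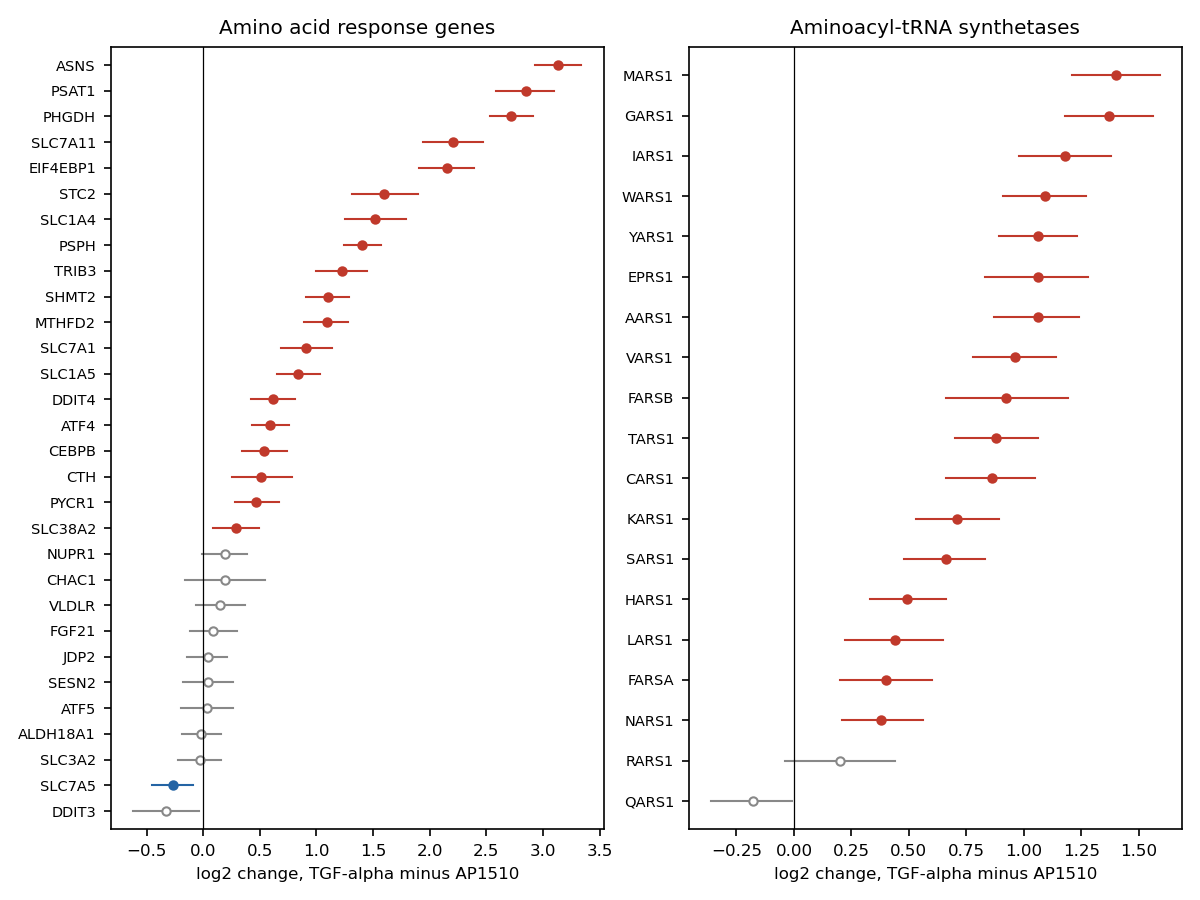
Log2 change of TGF-alpha minus AP1510 for each measured amino acid response gene (left) and aminoacyl-tRNA synthetase (right). Points are estimates, bars are 95% intervals from limma, filled red points rose, the filled blue point fell and open grey points did not pass at an adjusted p of 0.05. ASNS at 3.13 and MARS1 at 1.40 lead the panels.

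ATF4 pairs with C/EBP proteins on the amino acid response element, spelled TGATGNAAN here, and the same 250-base windows were searched for it on either strand. It was found in 5 of 24 amino acid response genes with a window (20.8%) and in 3 of 16 synthetase genes (18.8%), against 3.10% of the genes tested and 3.87% of all genes in the table. It was found in 0 of 31 replication genes, 0 of 18 ribosome biogenesis genes and 1 of 29 mitosis genes (3.45%). The 5 were ASNS, SLC1A5, CHAC1, FGF21 and JDP2, of which ASNS and SLC1A5 rose and the other 3 did not pass. The synthetase genes were AARS1, GARS1 and IARS1, and all 3 rose. The windows of ASNS, AARS1 (for alanine, up by 1.06 on the log2 scale) and GARS1 are shown because the genes rose and carry the element, which stands in capitals. ASNS lies at chr7:97872409-97872658 on the minus strand with the element at -68 to -60, AARS1 at chr16:70289507-70289756 on the minus strand with the element reversed at -188 to -180, and GARS1 at chr7:30594628-30594877 on the plus strand with the element reversed at -34 to -26.
ASNS: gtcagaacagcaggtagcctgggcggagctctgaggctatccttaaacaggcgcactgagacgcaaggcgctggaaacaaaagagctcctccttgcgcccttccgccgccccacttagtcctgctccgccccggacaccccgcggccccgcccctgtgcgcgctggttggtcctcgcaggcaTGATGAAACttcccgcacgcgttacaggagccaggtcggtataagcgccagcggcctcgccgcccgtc
AARS1: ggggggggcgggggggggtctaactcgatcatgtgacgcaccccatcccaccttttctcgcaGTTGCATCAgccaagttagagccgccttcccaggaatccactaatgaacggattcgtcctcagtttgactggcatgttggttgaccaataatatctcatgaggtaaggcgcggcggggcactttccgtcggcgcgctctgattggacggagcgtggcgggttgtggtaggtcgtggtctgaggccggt
GARS1: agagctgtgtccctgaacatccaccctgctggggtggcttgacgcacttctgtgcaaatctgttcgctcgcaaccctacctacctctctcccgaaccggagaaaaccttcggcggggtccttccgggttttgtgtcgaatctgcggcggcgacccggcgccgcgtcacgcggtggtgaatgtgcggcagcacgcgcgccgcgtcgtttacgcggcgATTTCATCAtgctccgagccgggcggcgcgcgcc

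Chaperones of the endoplasmic reticulum, which answer to unfolded protein, showed no such shift. Of 18 measured, 2 rose and 2 fell, 11.1% each, close to the shares over all genes, and the median was 0.05. HSPA5, the chaperone BiP, had a log2 change of -0.19 and did not pass (limma adjusted p = 0.16), while XBP1, a factor of this response, rose 1.48-fold and CALR, the chaperone calreticulin, fell 1.38-fold. In the fit of all groups, leaving out any single array reduced the rises to 1, but they were 2 when AP1510 replicate 1 was left out of a fit of the 6 arrays alone. The falls were 1 without TGF-alpha replicate 3 and 4 after a further quantile normalization. Cytosolic and mitochondrial heat shock genes gave 5 rises and 2 falls of 14, 35.7% and 14.3% against 11.2% and 10.4% over all genes. HSPH1 led the rises at 1.57-fold, while CRYAB, a small heat shock protein, fell 1.75-fold.

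Of 16 measured cholesterol synthesis genes, 11 rose and 1 fell, 68.8% and 6.25% against 11.2% and 10.4% over all genes. Their median change was 0.41. ACAT2, the thiolase at the start of the pathway, read 9.79, 9.98 and 9.84 in TGF-alpha cells, against 9.01, 8.59 and 8.69 in AP1510 cells, a rise of 2.16-fold (limma adjusted p = 3.5e-06). SQLE, squalene epoxidase, rose 1.75-fold and HMGCS1, HMG-CoA synthase, rose 1.64-fold. INSIG1, which restrains the pathway, had a log2 change of -0.39 (limma adjusted p = 0.012) and did not pass without TGF-alpha replicate 1 or AP1510 replicate 2 or 3. Of 13 measured fatty acid synthesis genes, 4 rose and 1 fell (30.8% and 7.69%, against 11.2% and 10.4% of all genes). ACSL4 led the rises at 1.72-fold, and SREBF1, the factor that drives this synthesis, fell 1.47-fold. The falls of this list were 2 without AP1510 replicate 1, after a further quantile normalization, with a variance trend and with array weights.

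Of 17 measured glycolysis genes, 8 rose and 0 fell, 47.1% and 0% against 11.2% and 10.4% over all genes. PFKP, the platelet form of phosphofructokinase, read 9.15, 9.13 and 9.14 in TGF-alpha cells, against 7.97, 7.87 and 7.86 in AP1510 cells, a rise of 2.36-fold (limma adjusted p = 4.6e-08). HK2, an inducible hexokinase, rose 1.95-fold. SLC2A1, the glucose transporter GLUT1, had a log2 change of -0.29 and did not pass (limma adjusted p = 0.051). Without TGF-alpha replicate 2 or AP1510 replicate 1 it passed, at -0.35 and -0.37, as the single fall of this list. The list also had 1 fall after a further quantile normalization, with the dimmest genes left out, with a variance trend and with array weights. Of 15 hypoxia genes, 4 rose and 1 fell (26.7% and 6.67%, against 11.2% and 10.4% of all genes). BNIP3, a regulator of mitochondrial turnover, led these rises at 1.90-fold.

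FOXO targets ran the other way. Of 19 measured, 10 fell and 2 rose (52.6% and 10.5%, against 10.4% and 11.2% of all genes), with a median of -0.36. FBXO32, the ubiquitin ligase atrogin-1, read 8.49, 8.49 and 8.27 in TGF-alpha cells, against 10.65, 10.21 and 10.42 in AP1510 cells, a fall of 4.04-fold (limma adjusted p = 5.9e-09). CITED2, a transcriptional co-regulator, fell 2.51-fold and PDK4, a kinase that shuts down pyruvate oxidation, fell 1.65-fold. IRS2, an insulin receptor substrate, rose 1.32-fold. The other rise, KLF9, did not pass without TGF-alpha replicate 3 or AP1510 replicate 3 or when all probe sets were tested.

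Of 22 measured genes in the TRAIL and BCL2 list, 4 rose and 4 fell, 18.2% each against 11.2% and 10.4% over all genes, and the median was -0.02. TNFSF10, the death ligand TRAIL, read 4.71, 4.38 and 4.58 in TGF-alpha cells, against 6.60, 7.50 and 7.36 in AP1510 cells, a fall of 6.05-fold (limma adjusted p = 4.6e-08). Its receptor TNFRSF10A rose 1.71-fold, and the death receptor FAS rose 1.64-fold. BMF and BCL2L11, the BH3-only proteins that trigger death after detachment or loss of growth factor, fell 2.37-fold and 2.16-fold, and BCL2L1, the survival protein BCL-XL, rose 1.67-fold. BCL2L11, the protein BIM, read 6.91, 6.68 and 6.60 in TGF-alpha cells, against 7.73, 7.74 and 8.06 in AP1510 cells.

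Luminal and secretory genes were mostly lower in TGF-alpha cells. Of 31 measured, 14 fell and 2 rose (45.2% and 6.45%, against 10.4% and 11.2% of all genes), with a median of -0.23. After AGR2, the mucins MUC16 and MUC15 fell 2.84-fold and 2.43-fold, and ELF3, an epithelial ETS factor, fell 2.20-fold. MUC16 read 6.77, 6.62 and 6.72 in TGF-alpha cells, against 7.97, 8.21 and 8.45 in AP1510 cells. GATA3 and FOXA1, the luminal transcription factors, fell by 0.86 and 0.94 on the log2 scale. Simple-epithelium keratins did not follow: KRT18 rose 2.18-fold and KRT8 rose 1.28-fold, while KRT19 fell by 0.59 on the log2 scale. KRT8 and KRT18 have many near-identical pseudogenes, and signal from these was not tested.

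Of 10 measured basal epithelial genes, 6 rose and 2 fell, 60% and 20% against 11.2% and 10.4% over all genes. ITGA6 and ITGB4, the chains of the laminin receptor of hemidesmosomes, rose 2.16-fold and 1.59-fold. ITGA6 read 10.73, 10.75 and 10.73 in TGF-alpha cells, against 9.61, 9.56 and 9.70 in AP1510 cells. SFN, the protein 14-3-3 sigma, rose 1.77-fold and KRT5, the basal keratin, rose 1.48-fold, whereas KRT15, another basal keratin, fell 1.47-fold. Without TGF-alpha replicate 1 or AP1510 replicate 3 the falls of this list were 1. KRT14 had a log2 change of 0.07.

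In the squamous differentiation list, 11 of 40 measured genes fell and 3 rose, 27.5% and 7.5% against 10.4% and 11.2% over all genes. The median was -0.05, and 26 did not pass. Of the kallikrein proteases of the epidermis, 5 were among the falls, while KLK11 and KLK13 did not pass. KLK5 read 7.66, 7.89 and 7.65 in TGF-alpha cells, against 9.80, 9.87 and 9.88 in AP1510 cells, a fall of 4.34-fold (limma adjusted p = 9.2e-07). KLK7 and KLK6 fell 3.91-fold and 3.73-fold, and S100A8, a calcium-binding protein of inflamed epithelium, fell 2.79-fold. SPRR2A, a cornified envelope protein, rose 1.76-fold and DSG3, a desmosomal cadherin of stratified epithelium, rose 1.68-fold. Members of the SPRR2 and kallikrein families have similar sequences, and cross-reading between them was not tested.

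Junction genes gave 9 falls and 3 rises of 20, 45% and 15% against 10.4% and 11.2% over all genes. CLDN1, a tight junction claudin, read 8.97, 8.94 and 8.99 in TGF-alpha cells, against 10.27, 10.72 and 10.81 in AP1510 cells, a fall of 3.10-fold (limma adjusted p = 1e-07). CLDN8 fell 2.23-fold and DSC2, a desmosomal cadherin, fell 1.85-fold, whereas PKP2, a desmosomal plaque protein, rose 3.68-fold. CDH1, E-cadherin, had a log2 change of only -0.25 (limma adjusted p = 0.046), and this was lost without TGF-alpha replicate 1, 2 or 3 or AP1510 replicate 1 or 3, under median centring, in a fit of the 6 arrays alone and when all probe sets were tested.

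Mesenchymal genes did not share a direction either, with 5 rises and 4 falls of 19 and a median of 0.05. These shares, 26.3% and 21.1%, were above the 11.2% and 10.4% over all genes. VIM, the filament protein vimentin, read 7.63, 7.87 and 8.09 in TGF-alpha cells, against 6.68, 6.51 and 6.29 in AP1510 cells, a rise of 2.58-fold (limma adjusted p = 6.6e-07). FN1, fibronectin, went the other way, with 8.20, 8.34 and 8.11 in TGF-alpha cells, against 9.48, 9.31 and 9.59 in AP1510 cells, a fall of 2.37-fold (limma adjusted p = 4.8e-07). SNAI1, a repressor of E-cadherin, fell 1.82-fold. Among proteases and their inhibitors, 9 of 24 fell and 2 rose, 37.5% and 8.33% against 10.4% and 11.2% over all genes. After MMP7, the collagenase MMP13 fell 2.97-fold, with 3.39, 3.80 and 4.46 in TGF-alpha cells, against 4.94, 5.51 and 5.90 in AP1510 cells, and PLAU, urokinase, fell 1.86-fold.

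Integrins, the receptors for matrix, gave 6 rises and 4 falls of 18, 33.3% and 22.2% against 11.2% and 10.4% over all genes, with a median of 0.1. ITGB6, which with ITGAV binds fibronectin and latent TGF-beta, read 9.01, 8.92 and 8.80 in TGF-alpha cells, against 10.71, 11.06 and 11.26 in AP1510 cells, a fall of 4.28-fold (limma adjusted p = 3.1e-08). ITGB8, another ITGAV partner, fell 1.91-fold and ITGAV itself fell 1.49-fold, but ITGB5, also an ITGAV partner, rose 2.19-fold. ITGA5, the fibronectin receptor chain, rose 1.98-fold.

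Inflammatory and NF-kB genes gave 11 falls and 2 rises of 24 measured (45.8% and 8.33%, against 10.4% and 11.2% of all genes). Across the list the median was -0.17. NFKBIZ, an inducible partner of NF-kB, read 6.26, 6.08 and 6 in TGF-alpha cells, against 7.16, 7.85 and 8.33 in AP1510 cells, a fall of 3.18-fold (limma adjusted p = 1e-05). The neutrophil chemokines CXCL2 and CXCL1 fell 2.19-fold and 2.12-fold, and TNFAIP2, induced by TNF, fell 2.49-fold. CCL20, a chemokine for dendritic and T cells, rose 1.58-fold. The other rise, IL1B, had overlapping arrays and was lost without TGF-alpha replicate 1 or 3 or AP1510 replicate 1 or 3. It was also lost in a fit of the 6 arrays alone, after a further quantile normalization, with a variance trend, with array weights and when all probe sets were tested.

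Complement and acute phase genes gave 8 falls and 1 rise of 19, 42.1% and 5.26% against 10.4% and 11.2% over all genes. C3, the central complement protein, read 11.39, 11.36 and 11.29 in TGF-alpha cells, against 12.28, 12.27 and 12.33 in AP1510 cells, a fall of 1.93-fold (limma adjusted p = 2.9e-07). CFB, factor B, fell 2.02-fold and the lipopolysaccharide co-receptor CD14 fell 2.20-fold. Toll-like receptors split, since TLR3, a sensor of double-stranded RNA, fell 3.27-fold while TLR2, a sensor of bacterial lipoproteins, rose 2.75-fold. TLR2 read 6.10, 6.57 and 6.57 in TGF-alpha cells, against 5.37, 4.80 and 4.68 in AP1510 cells.

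Interferon response genes gave 10 falls and 1 rise of 27, 37% and 3.7% against 10.4% and 11.2% over all genes. Their median change was -0.17. GBP2, a guanylate-binding protein, read 5.06, 4.99 and 4.79 in TGF-alpha cells, against 6.92, 7.68 and 7.68 in AP1510 cells, a fall of 5.58-fold (limma adjusted p = 3e-08). IRF1, a factor that opens the interferon and antigen presentation programme, fell 2.72-fold, IFI44L fell 2.24-fold and IFIT2 fell 1.97-fold. OAS3, the rise, was lost without TGF-alpha replicate 2 or AP1510 replicate 1. Many textbook members, among them ISG15, MX1 and IFIT1, had changes between -0.15 and 0.05 and did not pass.

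Of 13 measured antigen presentation genes, 8 fell and 0 rose (61.5%, against 10.4% of all genes), each fall by under 2-fold. TAPBP, tapasin of the peptide-loading complex, read 8.80, 8.74 and 8.76 in TGF-alpha cells, against 9.56, 9.73 and 9.83 in AP1510 cells, a fall of 1.92-fold (limma adjusted p = 2.8e-06). PSMB10, an immunoproteasome subunit, fell 1.91-fold, ERAP1, which trims peptides, fell 1.76-fold, and B2M, the light chain of class I molecules, fell 1.64-fold. Without AP1510 replicate 1 the falls were 6, and without TGF-alpha replicate 1 there was 1 rise. Most HLA genes are not analysed here. Of 8 B7 family ligands, VTCN1 was the only one that passed, a share of 12.5% falling against 10.4% over all genes. CD274, the checkpoint ligand PD-L1, had a log2 change of -0.07.

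Adenosine-handling genes other than NT5E changed less. Of 12 measured, 2 rose and 2 fell, 16.7% each against 11.2% and 10.4% over all genes. ADORA2B, an adenosine receptor, read 8.47, 8.82 and 8.53 in TGF-alpha cells, against 8.01, 7.68 and 7.88 in AP1510 cells, a rise of 1.68-fold (limma adjusted p = 7.9e-05). SLC28A3, a nucleoside importer, fell 2.32-fold, and ADA, the deaminase that breaks adenosine down, fell 1.38-fold.

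Inhibitor-of-differentiation proteins, which block basic helix-loop-helix factors and are targets of BMP signalling, were lower in part. ID2 read 5.51, 5.10 and 5.23 in TGF-alpha cells, against 8, 7.97 and 7.76 in AP1510 cells, a fall of 6.18-fold (limma adjusted p = 4.2e-08). ID3 fell 2.83-fold, SMAD6, an inhibitor of BMP signals, fell 1.63-fold and HES1, a Notch target, fell 1.52-fold. ID1 had a log2 change of -0.27 and did not pass (limma adjusted p = 0.053), except without AP1510 replicate 1 (-0.31, limma adjusted p = 0.044). In all, 6 of 15 genes of the ID and BMP list fell and 1 rose, 40% and 6.67% against 10.4% and 11.2% over all genes. The rise was that of NOG, a BMP antagonist, by 0.43. It was lost without TGF-alpha replicate 3 or AP1510 replicate 1 or 2 and when all probe sets were tested. Without TGF-alpha replicate 1 the rises of this list were 2.

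Hydrocortisone was in the medium of both groups, and genes that answer to it differed between them. Of 14 measured glucocorticoid-response and sodium channel genes, 9 rose and 1 fell (64.3% and 7.14%, against 11.2% and 10.4% of all genes). Across the list the median was 0.62. SCNN1G, the gamma subunit of the epithelial sodium channel, read 9.62, 9.85 and 9.73 in TGF-alpha cells, against 8.28, 7.14 and 7.08 in AP1510 cells, a rise of 4.71-fold (limma adjusted p = 1.8e-06). MT2A, a metallothionein, read 13, 13.11 and 12.86 in TGF-alpha cells, against 11.05, 10.74 and 10.57 in AP1510 cells, a rise of 4.60-fold (limma adjusted p = 1.9e-08). MT1E and MT1X rose 3.28-fold and 2.27-fold, and metallothionein genes are so alike that their probe sets may share signal. TSC22D3, the glucocorticoid-induced leucine zipper protein, read 8.93, 9.14 and 9.07 in TGF-alpha cells, against 8.37, 7.61 and 7.69 in AP1510 cells.

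HSD11B2, the enzyme that inactivates cortisol, was the single fall of that list. It read 8.26, 8.09 and 8.10 in TGF-alpha cells, against 10.43, 9.58 and 9.59 in AP1510 cells, a fall of 3.28-fold (limma adjusted p = 1.7e-05). The receptor gene NR3C1 had a log2 change of -0.18 and did not pass, nor did SGK1 at 0.17. In HSD11B2, AP1510 replicate 1 was the array furthest from TGF-alpha. Averaged over the 14 measured genes of the list, it was instead the nearest AP1510 array. It averaged 8.28, against 7.80 and 7.72 in AP1510 replicates 2 and 3 and 8.56 to 8.63 in the TGF-alpha arrays.

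Clock genes gave 3 rises and 4 falls of 17, 17.6% and 23.5% against 11.2% and 10.4% over all genes, with a median of 0.04. BHLHE41, a repressor in the clock, read 6.66, 6.63 and 6.65 in TGF-alpha cells, against 8.12, 8.59 and 8.74 in AP1510 cells, a fall of 3.57-fold (limma adjusted p = 1.3e-07). PER2 fell 1.65-fold, while PER1, which glucocorticoids also induce, rose 1.75-fold and NFIL3, a bZIP repressor, rose 2.51-fold. PER1 read 7.59, 7.65 and 7.57 in TGF-alpha cells, against 7.44, 6.54 and 6.42 in AP1510 cells. Its log2 change ran from 0.61 to 1.13 over the alternatives, and was 1.13 without AP1510 replicate 1. CLOCK and BMAL1 had changes of 0.41 and 0.12 and did not pass.

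**Figure D5:**
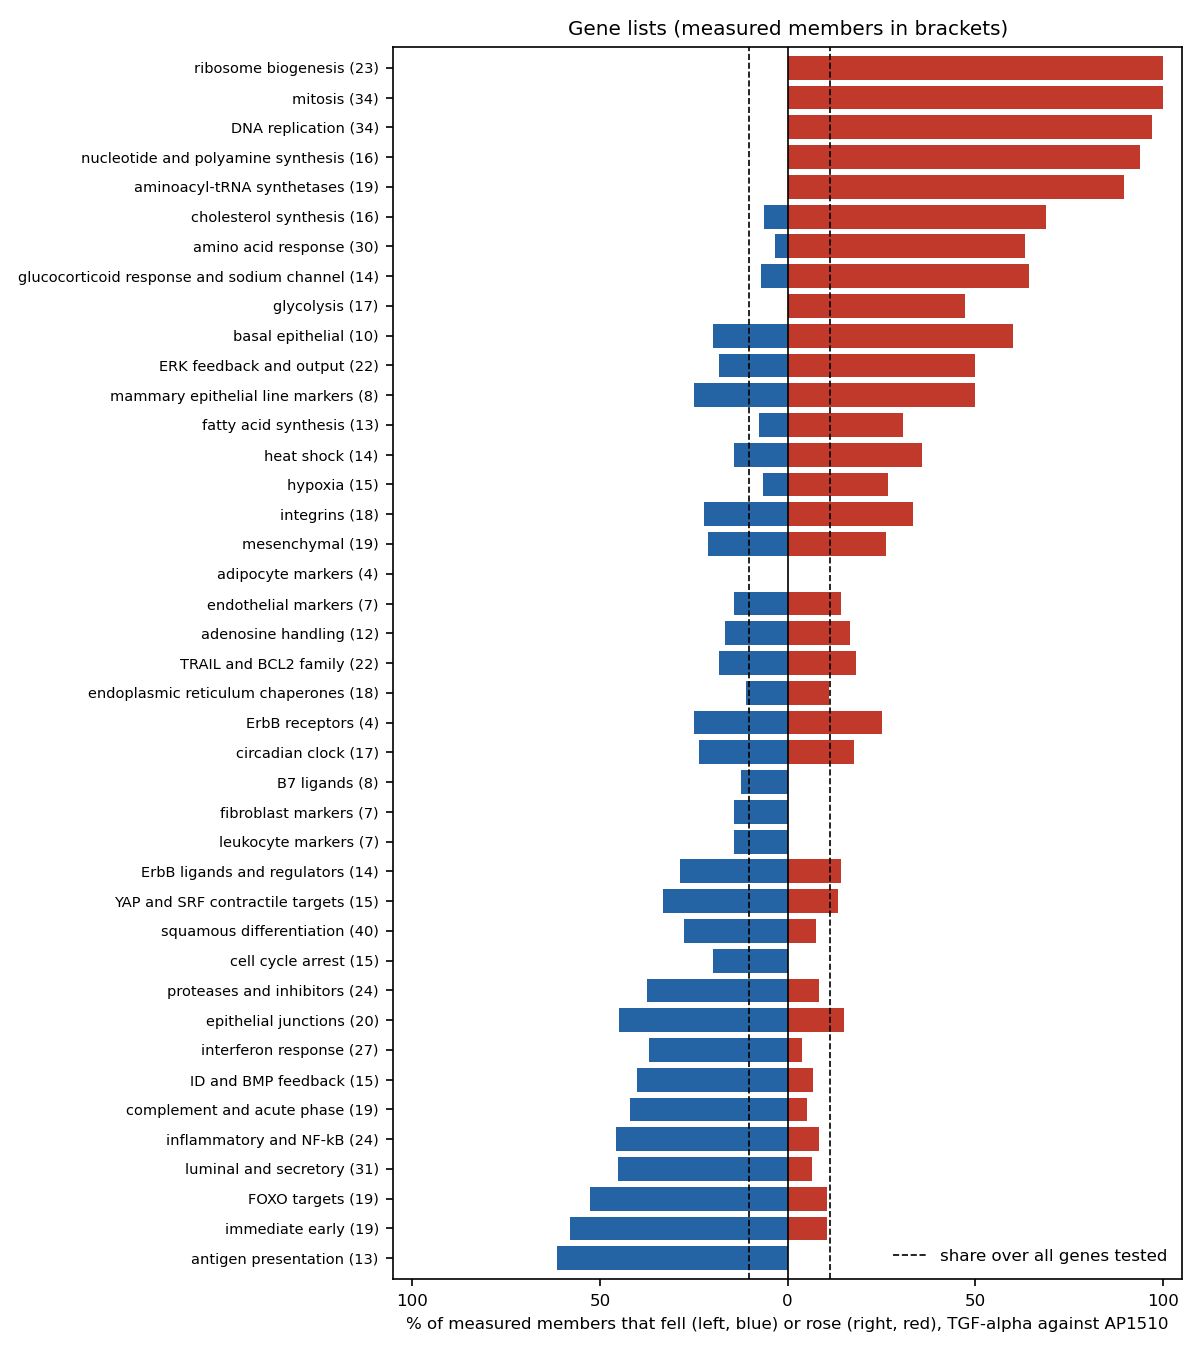
Share of the measured members of each gene list that rose (right, red) or fell (left, blue) in TGF-alpha against AP1510 cells, in percent, with the number measured in brackets. Dashed lines mark the shares over all genes tested, 11.2% to the right and 10.4% to the left. Ribosome biogenesis and mitosis reach 100% on the right, and antigen presentation, immediate early and FOXO targets lie furthest to the left.

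The labelled cell type was checked on markers. Of 8 measured markers of mammary epithelial lines, KRT5 read 12.55 to 12.63 in TGF-alpha cells and 11.83 to 12.25 in AP1510 cells, and the list summed on the linear scale to 16763 to 17759 and 11179 to 12593. Of these 8, 4 rose and 2 fell, 50% and 25% against 11.2% and 10.4% over all genes. Leaving out any array except AP1510 replicate 2 reduced the falls to 1 or 0. Markers of other cells differed in level. PTPRC, the leukocyte antigen CD45, read 2.84 to 3.12 in TGF-alpha cells and 2.93 to 3.05 in AP1510 cells, near the low end of the arrays. Others read higher: in TGF-alpha and AP1510 cells, CD68 read 6.99 to 7.25 and 8 to 8.17, and DCN 6.26 to 6.44 and 6.98 to 7.46. KDR, of the endothelial list, read 6.12 to 6.44 and 5.07 to 5.95. Linear sums over 7 leukocyte markers were 243 to 269 in TGF-alpha cells and 378 to 411 in AP1510 cells, over 7 fibroblast markers 291 to 307 and 358 to 401, over 7 endothelial markers 592 to 607 and 565 to 595, and over 4 adipocyte markers 78 to 98 and 87 to 92. The leukocyte sum differed through CD68, which epithelial cells also make and which fell 1.94-fold, and the fibroblast sum through DCN, decorin, which fell 1.80-fold. The part of such cells in the results was not tested.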

How the data were processed

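RNA of each dish was labelled with biotin and hybridised to 1 Affymetrix array, per the labels' protocols. The authors deposited log2 intensities from RMA, per the submitters' processing notes, which give no version. They ran from 1.75 to 14.23, with array medians of 5.33 to 5.44, and were used without further scaling. Of 33297 probe sets, 19460 name 1 gene, 1754 name several and 12083 have no listed gene. Symbols were matched by Entrez ID to RefSeq (GRCh38.p14), which held 19429 of the 1-gene probe sets. Where a gene had several probe sets, as 769 genes did, the one brightest on average over the 12 arrays was kept, which left 18417 genes. Per-sample columns outside the series numbered 0.

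Genes were tested two-sided with limma 3.58.1 in R 4.3.3, in 1 model with a mean for each of the 4 groups of the series, so that all 12 arrays share 1 estimate of the spread (8 residual and 7.55 prior degrees of freedom, median moderated SD 0.128). Benjamini-Hochberg adjustment ran over all genes, with a threshold of 0.05, and an unadjusted p under 0.05 was met by 5562 genes. The median SE of a change was 0.1, and the 95% interval reached 0.22 to either side at the median. The procedure was tested on simulated data, drawn independently from normal distributions with the model's own spread. Those data hold no outlying array, so they cannot show how the procedure deals with AP1510 replicate 1. Alternatives were a fit of the 6 arrays alone, a further quantile normalization, median centring, leaving out the dimmest 30% of genes, the mean of a gene's probe sets, a variance trend with robust fitting, array weights, a test of all probe sets together, and leaving out each array.

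The 41 gene lists hold 765 genes, 705 of them measured, and they and the comparison itself were chosen with earlier results of these data known. Lists are described by counts and medians only. Genes named are the 15 largest rises and falls without overlap between groups, the markers NT5E, ASNS, DUSP6, AGR2 and MMP7, all ErbB genes, and up to 4 members of each list in each direction among those that passed. Any other gene named was chosen after its values were seen. Promoter windows are the 250 bases before RefSeq starts. Replicate numbers follow accession order, as the labels give none.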

Additional observations from a re-analysis of the deposited data

Results flagged for a closer look

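Signals outside the genes tested also differed between the treatments. Of the 1754 probe sets that name several genes, 254 passed at an adjusted p of 0.05 when all probe sets were tested together with limma (14.5%), 134 higher and 120 lower in TGF-alpha cells, and 20 changed at least 2-fold. Of the 12083 probe sets with no listed gene, 581 passed (4.81%), 364 higher and 217 lower, and 64 changed at least 2-fold. These probe sets are not named here, and they enter none of the counts above.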

How the results depend on the processing

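The count of genes that passed was 3981, with a range of 3347 to 4564 over the 8 processing alternatives and of 3164 to 4237 when an array was left out. The genes that rose ranged from 1762 to 2359 and from 1655 to 2185, those that fell from 1585 to 2205 and from 1478 to 2052, and those changed at least 2-fold from 448 to 489 and from 422 to 585. More genes rose than fell, except after a further quantile normalization (1997 rose and 2059 fell) and without TGF-alpha replicate 2 (1655 rose and 1676 fell). The scalings moved the median change of all genes by at most 0.02. Of 215 named genes, 205 passed and 183 of these passed in every alternative that tested them. The sign of the change turned only in ERBB4, EREG and NRG3, which did not pass: leaving out an array gave ranges of -0.08 to 0.04, -0.01 to 0.07 and -0.09 to 0.04, which include values of 0.02 for ERBB4 without TGF-alpha replicate 3 and for NRG3 without TGF-alpha replicate 1. Of 82 counts over lists, 19 moved by over 1.5 times in some alternative, all of them counts of 4 or fewer. The cause was not tested. No paired analysis was possible because the labels number no replicates. Signal near background limits what could be seen in dim genes, of which few passed.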

Other observations

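The next 15 changes in each direction, named after their values were seen, add genes of other kinds. SLC20A1, a phosphate importer, read 10.63, 10.59 and 10.63 in TGF-alpha cells, against 8.56, 8.37 and 8.46 in AP1510 cells (log2 change 2.15). EIF4EBP1, a brake on cap-dependent translation and also an ATF4 target, rose by 2.15 as well, and PITPNC1, a phosphatidylinositol transfer protein, rose by 2.10. ALDH1L2, a mitochondrial folate enzyme, rose by 1.93, and LYAR, a nucleolar protein, rose by 1.96. LPL, lipoprotein lipase, rose by 1.77, and RPS6KA2, an ERK-activated kinase, rose by 1.73.

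Among the falls, MME, the membrane peptidase neprilysin and a marker of myoepithelial cells, read 7.66, 7.72 and 7.61 in TGF-alpha cells, against 9.93, 9.86 and 9.91 in AP1510 cells (log2 change -2.23). TLR1, a partner of the TLR2 that rose, fell by 2.23. PLK2, a stress-induced polo-like kinase, fell by 2.09 while PLK1 rose. CTSS, a lysosomal protease of antigen presentation, fell by 2.01, and TNFRSF11B, the RANK ligand decoy osteoprotegerin, fell by 1.98 with AP1510 arrays from 5.59 to 6.90. TCN1, a vitamin B12 carrier of secretory epithelium, fell by 2.17.

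Of 164 microRNA genes tested, 2 passed, against 21.6% of all genes and 3.83% of those with a mean level up to 4.98. Whether the level of the microRNA genes accounts for this was not tested. The 2 that passed are named after their values were seen. The array reads RNA of the locus and not the mature strand. MIR21 read 8.89, 8.55 and 8.61 in TGF-alpha cells, against 9.06, 9.19 and 10.04 in AP1510 cells (log2 change -0.75 ± 0.20 SE, limma adjusted p = 0.01), with AP1510 replicate 3 the highest. Without that array the change was -0.44 (limma adjusted p = 0.039). MIR134 had a log2 change of 0.38 (limma adjusted p = 0.033), and did not pass when any array other than AP1510 replicate 1 was left out. The mature strand of MIR21, shown because this locus had the larger change, is given from RefSeq with the seed, bases 2 to 8, in capitals (GRCh38.p14, chr17:59841273-59841294, plus strand).
miR-21-5p: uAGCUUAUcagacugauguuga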
